A study of Mus musculus with 2 samples.

Results

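Genes of macrophages and of the precursors of microglia were examined in the brain of wild type and luxoid (Plzf lu/lu) mouse embryos at the embryonic stage E10.5. The 10 genes, chosen by name, were Csf1r, Cx3cr1, Fcer1g, Tyrobp, C1qb, C1qc, Aif1, Mrc1, Pf4 and Ptprc, of 37074 gene names on the array. RNA of the forebrain and midbrain was hybridized to 2 arrays with 2 dyes each. Each array compared 1 wild type sample (C57BL/6, Cy3) with 1 Plzf lu/lu sample (luxoid, Cy5), and the labels call the 2 arrays biological replicates. Luxoid is a spontaneous mutation of Plzf, a zinc finger transcription factor encoded by Zbtb16, and a changed nucleotide in the first coding exon truncates the protein. How many embryos stood behind each array is not given in the sources used here. Both arrays lay on 1 slide. The dyes were not exchanged, so a dye effect on a probe cannot be told apart from an effect of genotype. Any difference of strain background between the samples likewise cannot be told apart from the mutation. Zbtb16 itself had a processed signal (intensity after background subtraction and dye normalization, in arbitrary units) of 433 in wild type and 172 in Plzf lu/lu on array 1, and of 546 and 211 on array 2.

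Microglia, the macrophages of the brain, descend from erythro-myeloid progenitors of the yolk sac, whose progeny enter the neuroepithelium at about this stage of mouse development. Their growth and survival depend on the receptor Csf1r and its ligands Csf1 and Il34, and their differentiation on the transcription factor PU.1 (Spi1). In bulk RNA of a brain region these cells are a small minority, and a lower signal from fewer such cells cannot be told apart from less RNA per cell. Blood left in the tissue adds RNA of primitive erythrocytes, megakaryocytes and circulating progenitors, and some of the 10 genes are not restricted to macrophages: Pf4 is also a major product of megakaryocytes, Fcer1g is found in mast cells and platelets, and Ptprc in all white blood cells.

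The 10 genes were measured by 19 probes of 60 bases, of which 13 carried a RefSeq transcript and 6 an Ensembl transcript as their name. In all 4 channels, 14 of the 19 probes were well above background, the call that the scanner software makes for each spot, and each of the 10 genes had at least 1 such probe. Each gene was represented by its brightest probe. The study's own filter was a processed signal above 200 and a signal-to-noise ratio of at least 5. Its methods do not say in how many channels this had to hold, and all 4 were required here. In this form the filter was passed by 5 of the 10 genes (Csf1r, Fcer1g, Tyrobp, Pf4 and Ptprc). Because such a filter can leave out a gene that was low in only 1 genotype, all 10 are described.

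Sequences of 2 probes are shown because they bear on what was measured. The probe of Tyrobp, the adaptor protein DAP12, was annotated at chr7:31200651-31202378 (mm9, plus strand), an interval of 1728 bases for a probe of 60, so that it crosses at least 1 intron and reads spliced RNA. In 1 of its 2 reading frames without a stop codon, the capitals mark the codons of a tyrosine, 2 further residues and a leucine, which form part of the ITAM through which the adaptor signals. The brightest probe of Ptprc, the phosphatase CD45, was annotated at chr1:140020575-140020634 (mm9, minus strand) and named by an Ensembl transcript. Its bases 31 to 60 are shown with a run of alternating thymine and purine bases, 18 long, in capitals.
Tyrobp probe: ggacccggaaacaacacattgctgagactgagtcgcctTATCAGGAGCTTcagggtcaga
Ptprc probe, bases 31 to 60: cagatagatttTATATATATGTGTATATAt

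The promoters of 8 of the 10 genes were found in the RefSeq promoter table (GRCm38.p6), with 2 start sites for Ptprc, and the 250 bases before each start were searched on both strands. GAGGAAG, a form of the ETS box bound by PU.1, lay before 3 of the 9 starts (C1qc, Mrc1 and Pf4), against 10.6% of all 32851 promoter windows. The motif of erythroid Gata factors, searched as AGATAA, lay before 1 of the 9 starts (Ptprc), against 9.99% of all windows. TGTGGT, a RUNX motif, lay before 2 of the 9 starts (C1qc and Cx3cr1), against 14.0%. The stretches around the ETS box are shown on the strand of the gene, where the box reads CTTCCTC, in capitals, and comes from the other strand. In Pf4 it lay 9 to 3 bases before the start, and in Mrc1 the nearer of its 2 matches lay 36 to 30 bases before it. In C1qc it lay 194 to 188 bases before the start. A match describes these letters only, and binding was not measured.
Pf4, chr5:90772400-90772434, plus strand: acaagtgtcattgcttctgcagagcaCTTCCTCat
Mrc1, chr2:14229352-14229411, plus strand: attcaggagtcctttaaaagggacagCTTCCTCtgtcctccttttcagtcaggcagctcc
C1qc, chr4:136893075-136893134, minus strand: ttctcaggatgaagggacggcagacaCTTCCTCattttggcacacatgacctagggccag

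On array 1, 9 of the 10 genes were below 0 on the log2 scale (lower in Plzf lu/lu), and on array 2, 6 were, by smaller differences for most. Of all 23284 genes well above background, 11528 were below 0 on array 1 and 11700 on array 2. On array 1, 7 of the 10 were lower by more than 1.3-fold, the study's threshold, against 9.67% of the 23284 genes well above background in all 4 channels. On array 2, 1 of the 10 was, against 5.12% of those genes. For the 10 genes the log2 ratio (Plzf lu/lu over wild type) had a median of -0.57 on array 1 and -0.10 on array 2, where the median of all genes well above background was 0.00 on both arrays. Pf4 was the only gene of the 10 that was lower by more than 1.3-fold on both arrays, and none was higher on both. Of all genes well above background, 2.07% were lower on both arrays and 2.52% higher. Among the 10600 genes that passed the study's filter as applied here, 0.736% were lower on both arrays and 2.58% higher. With limma and Benjamini-Hochberg adjustment over those 10600 genes, none of the 5 that passed had an adjusted p under 0.05, as did 0.0283% of the genes tested (3 genes), and over the 23284 genes none of the 10 did, where 0% of all genes did. In that wider fit, 3 of the 10 (Csf1r, Mrc1 and Pf4) had an unadjusted limma p under 0.05 with a lower signal in Plzf lu/lu, where 8.11% of all genes did. The signals of the 10 genes by array place wild type of array 1 at the top of its panel in 8 of them.

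**Figure D1:**
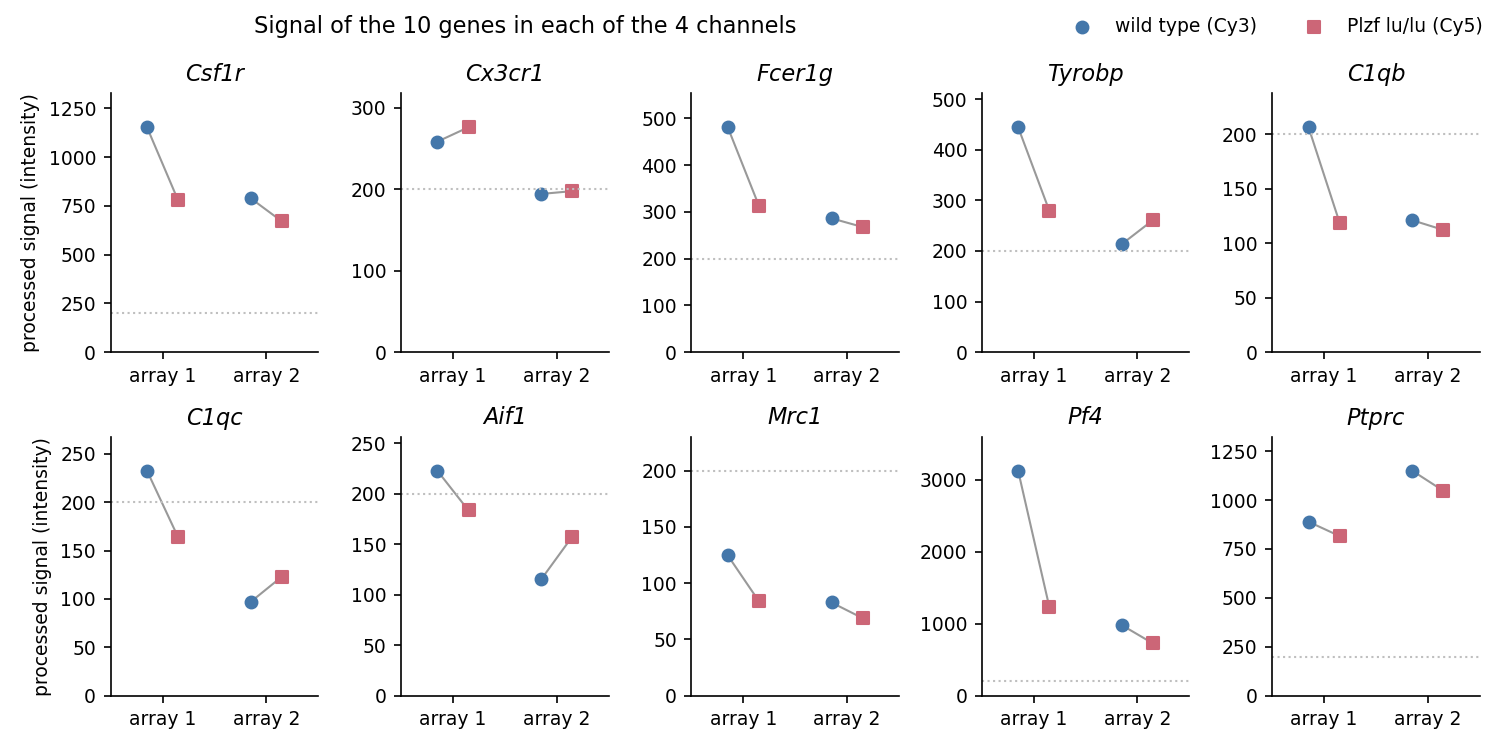
Processed signal (intensity, linear axis from 0) of the brightest probe of each of the 10 genes, with 1 panel per gene. Circles are wild type (Cy3) and squares Plzf lu/lu (Cy5), a line joins the samples of 1 array, and the dotted line marks the study's minimum of 200. In Pf4 the wild type signal of array 1 was 3126, and the other 3 signals lay between 725 and 1236.

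Csf1r encodes the receptor for Csf1 and Il34, which macrophages and their precursors carry from their origin onward. Its brightest probe (NM_001037859) had a signal of 1154 in wild type and 779 in Plzf lu/lu on array 1, and of 789 and 671 on array 2. Both wild type signals were above both Plzf lu/lu signals, though the lower wild type signal and the higher Plzf lu/lu signal differed by little. The log2 ratio was -0.57 on array 1 and -0.23 on array 2, with a mean of -0.40 ± 0.24 (SD, n = 2 arrays). By limma the SE was 0.10 and the adjusted p 0.0908. The second probe of the same transcript read 220 and 211 on array 1 and 231 and 209 on array 2, log2 ratios of -0.06 and -0.14, so that the 2 probes shared the direction and differed in size. Among the 10 brightest probes, C1qb was the only other one with both wild type signals above both Plzf lu/lu signals, 2 of 10 against 22.4% of all genes well above background. These signals were not normalized between arrays.

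The ligands were also measured. Cx3cl1, the ligand of Cx3cr1, which neurons and endothelium produce, was the only one of the 3 that was lower by more than 1.3-fold on both arrays, at 279 in wild type and 174 in Plzf lu/lu on array 1 and 264 and 202 on array 2. Over all genes well above background, 2.07% were lower by more than 1.3-fold on both arrays. Csf1 had log2 ratios of -0.27 and -0.48. Il34, a dim probe, had -0.51 and -0.26. All 3 ligands were below 0 on both arrays, as were 7732 of the 23284 genes well above background. None of the 3 ligands passed the study's filter in all 4 channels.

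Cx3cr1 encodes the fractalkine receptor and marks microglia and their precursors. Its brightest probe (NM_009987, chr9:119957811-119957870, mm9) had a signal of 259 in wild type and 276 in Plzf lu/lu on array 1, and of 194 and 198 on array 2. The log2 ratios were 0.10 and 0.03, so that Cx3cr1 was the only gene of the 10 above 0 on array 1. Its second probe was dim, at 33.2 and 23.3 on array 1 and 29.7 and 27.8 on array 2. That probe had log2 ratios of -0.51 and -0.09, and the direction for Cx3cr1 therefore depended on the probe. The mean of the brightest probe was 0.06 ± 0.05 (SD, n = 2 arrays), with a limma adjusted p of 0.738 over the 23284 genes.

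Fcer1g and Tyrobp encode the signalling adaptors that pair with Fc receptors and with Trem2 and other receptors of the myeloid surface. Fcer1g (NM_010185, chr1:173159794-173159853, mm9) read 481 in wild type and 313 in Plzf lu/lu on array 1, and 286 and 268 on array 2. Its log2 ratio was -0.62 on array 1 and -0.10 on array 2, with a mean of -0.36 ± 0.37 (SD, n = 2 arrays). By limma the SE was 0.13 and the adjusted p 0.158. Tyrobp (NM_011662) turned direction between the arrays. It read 445 in wild type and 280 in Plzf lu/lu on array 1, and 214 and 261 on array 2. The wild type sample of array 1 was the highest of the 4 and that of array 2 the lowest, and the Plzf lu/lu samples lay between them. Its log2 ratios were -0.67 and 0.29, with a mean of -0.19 ± 0.68 (SD, n = 2 arrays) and a limma adjusted p of 0.589. Trem2, named here after its values were seen because it signals through Tyrobp, had log2 ratios of -0.29 and 0.33.

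C1qb and C1qc encode chains of the complement component C1q, which macrophages and microglia produce. C1qb (NM_009777, chr4:136436578-136436637, mm9) read 206 in wild type and 119 in Plzf lu/lu on array 1, and 121 and 112 on array 2. Here 1 sample stood apart, the wild type of array 1, and the other 3 lay close together. The log2 ratios of C1qb were -0.80 and -0.11. C1qc (NM_007574, chr4:136445766-136445825, mm9) read 233 and 164 on array 1 and 97.0 and 123 on array 2, log2 ratios of -0.51 and 0.34. Its direction thus turned, as for Tyrobp. A second probe of C1qc, named by an Ensembl transcript, was not well above background in any channel. C1qa, the remaining chain of the complex and named here after its values were seen, had log2 ratios of -0.77 and -0.30. Over the 23284 genes the limma adjusted p was 0.338 for C1qb and 0.870 for C1qc.

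Aif1 encodes Iba1, an actin-binding protein of macrophages and the usual stain for microglia. Its probe (NM_019467, chr17:35307959-35308018, mm9) read 223 in wild type and 184 in Plzf lu/lu on array 1, and 115 and 158 on array 2. The log2 ratios were -0.28 and 0.45, and Aif1 was the only gene of the 10 higher by more than 1.3-fold on array 2, where 6.50% of all genes well above background were. Its limma adjusted p over the 23284 genes was 0.842. Mrc1, the mannose receptor CD206 of yolk sac and border macrophages, kept its direction. Its probe (NM_008625, chr2:14253273-14253332, mm9) read 125 in wild type and 84.0 in Plzf lu/lu on array 1, and 82.8 and 68.9 on array 2. The higher Plzf lu/lu signal thus lay just above the lower wild type signal. The log2 ratios were -0.57 and -0.27, with a mean of -0.42 ± 0.22 (SD, n = 2 arrays), a limma SE of 0.12 and an adjusted p of 0.263 over the 23284 genes.

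Pf4, platelet factor 4 or Cxcl4, is a chemokine of megakaryocytes and platelets that macrophage precursors of the yolk sac also express. Its probe (NM_019932, chr5:91202275-91202334, mm9) read 3126 in wild type and 1236 in Plzf lu/lu on array 1, and 979 and 725 on array 2. The Plzf lu/lu sample of array 1 was thus above the wild type sample of array 2, and the signals of the genotypes overlapped. Within the arrays, Plzf lu/lu had 0.395 of the wild type signal on array 1 and 0.741 on array 2. The mean log2 ratio was -0.89 ± 0.64 (SD, n = 2 arrays), from -1.34 and -0.43, with a limma SE of 0.20 and an adjusted p of 0.0810 over the genes that passed the filter. Pf4 stands in the study's own list of changed genes, which was chosen on these arrays, and its change is not independent evidence.

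Ptprc encodes CD45, the phosphatase carried by white blood cells of every lineage, and the array held 7 probes for it. The brightest, whose repeat run is shown above, read 889 in wild type and 816 in Plzf lu/lu on array 1, and 1150 and 1047 on array 2. Its log2 ratios were -0.12 and -0.14, and it was the only one of the 10 brightest probes for which both samples of array 2 were above those of array 1. A probe of the RefSeq transcript (NM_011210, chr1:139960089-139960148, mm9) was dim, at 35.6 and 32.5 on array 1 and 31.8 and 18.9 on array 2. That probe had log2 ratios of -0.13 and -0.75. A further probe, named by an Ensembl transcript, read 35.9 and 33.5 on array 1 and 53.6 and 44.3 on array 2. These 3 probes, which were well above background in every channel, had a lower signal in Plzf lu/lu on both arrays. A probe of another Ensembl transcript, well above background in 3 of the 4 channels, had the opposite direction, with 2.96 in wild type and 9.58 in Plzf lu/lu on array 1 and 12.1 and 21.0 on array 2, log2 ratios of 1.69 and 0.80. The other 3 probes, among them a second one of the RefSeq transcript, were not well above background in any channel, and whether the brightest one measured Ptprc RNA was not tested.

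**Figure D2:**
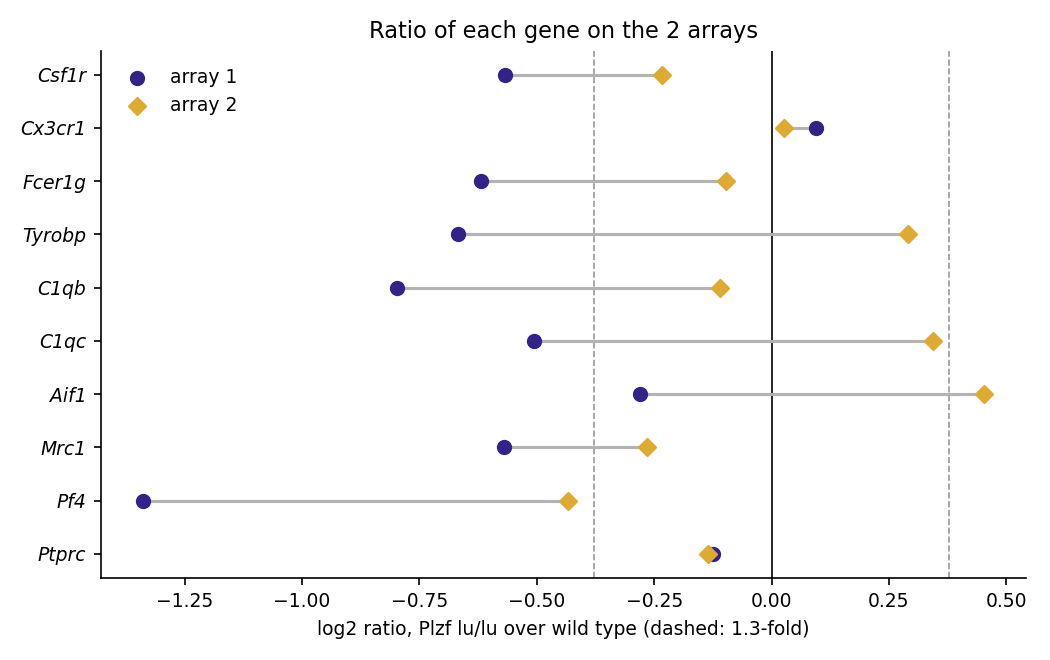
Log2 ratio (Plzf lu/lu over wild type) for the brightest probe of each of the 10 genes, with circles for array 1 and diamonds for array 2. The dashed lines mark 1.3-fold in either direction. Only Pf4 lay beyond the lower line on both arrays, and Tyrobp, C1qc and Aif1 lay on opposite sides of 0.

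The arrays also differed within each genotype. After quantile normalization of the 4 channels, the wild type sample of array 1 was higher than that of array 2 in 9 of the 10 genes, with a median log2 difference of 0.74, and the exception was Ptprc. With the brightest RefSeq probe of each gene, which is dim for Ptprc, it was higher in all 10. Of all genes well above background, 11679 of 23284 were higher in that sample. Between the Plzf lu/lu samples the median difference was 0.21, and over all genes well above background the medians were 0.00 and 0.01. Pf4 differed by 1.66 between the wild type samples and by 0.74 between the Plzf lu/lu samples. Tyrobp differed by 1.05 and 0.08, and C1qc by 1.28 and 0.42. Cx3cr1, whose ratios were near 0, differed by 0.40 and 0.46. With 1 sample per genotype and array, these differences have no replicate and no test.

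Markers of blood also differed between the arrays. In the erythroid list, 14 of 15 genes well above background were lower by more than 1.3-fold on array 1 and 1 of 15 on array 2. Over all genes well above background the shares were 9.67% and 5.12%. The erythroid list had median log2 ratios of -0.94 and 0.03. Its wild type samples differed by a median of 1.61 and its Plzf lu/lu samples by 0.43. Hbb-y, an embryonic globin, was listed at 146810 in wild type and 84558 in Plzf lu/lu on array 1 and at 56549 and 81173 on array 2, so that it turned direction as Tyrobp, C1qc and Aif1 did. In the megakaryocyte and platelet list, 14 of 17 genes were lower on array 1 and 5 of 17 on array 2, with median log2 ratios of -0.87 and -0.30. Those lower on both arrays were Itgb3, Itga2b, Gp6, Rab27b and Vwf, which endothelium also makes. Over all genes well above background, 2.07% were lower on both arrays. Itgb3, an integrin chain of platelets, read 647 and 332 on array 1 and 263 and 164 on array 2. Itga2b, its partner chain, had log2 ratios of -1.29 and -0.59, and Gp6, the collagen receptor, -1.01 and -0.79. Clec1b, the gene of this list with the highest mean signal, had -0.14 and -0.33. The part of blood content in the ratios of the 10 genes was not tested.

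**Figure D3:**
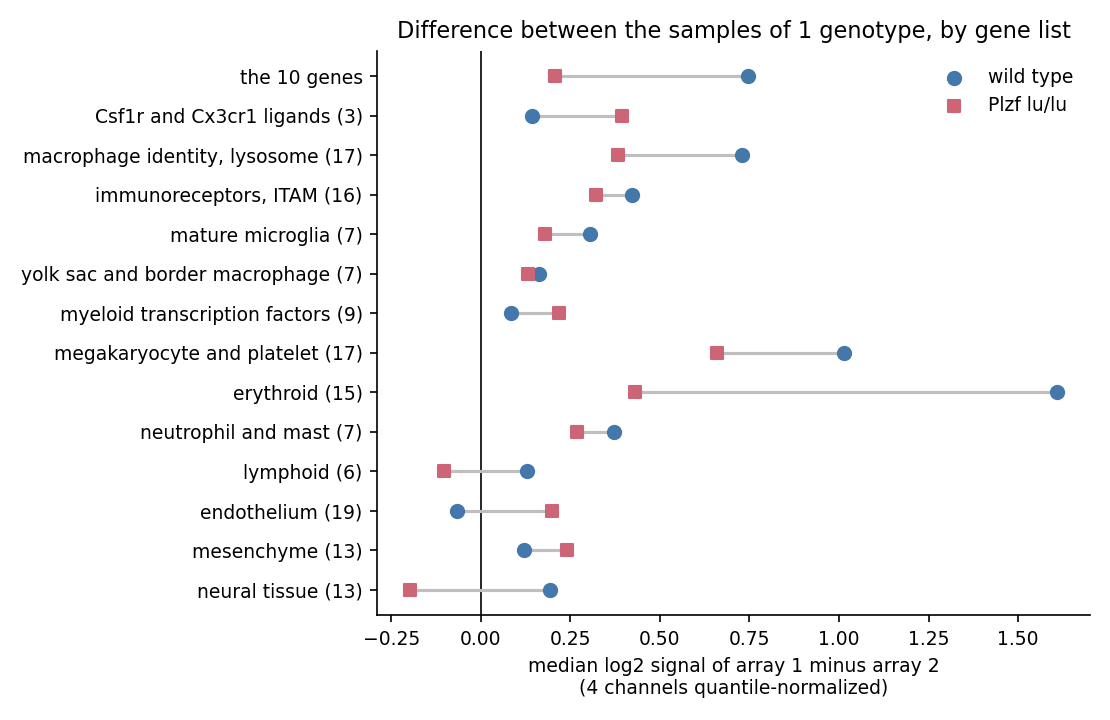
Median log2 signal of array 1 minus array 2 within each genotype after quantile normalization, for the 10 genes and each marker list (number of genes well above background in parentheses). Circles are wild type and squares Plzf lu/lu, with 1 sample per genotype and array. The 10 genes stood at 0.74 and 0.21, and the erythroid list, with the widest gap, at 1.61 and 0.43.

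Other cells of the tissue gave different values. In the endothelium list, 10 of 19 genes were lower by more than 1.3-fold on both arrays, against 2.07% of all genes well above background. The list had medians of -0.45 and -0.75, and the median difference between the wild type samples was -0.07. Its 4 genes with the largest smaller change were Tie1, Emcn, Eng and Plvap. Emcn, a sialomucin of vessels, read 556 and 360 on array 1 and 528 and 330 on array 2. Egfl7, the brightest of the list, had log2 ratios of -0.16 and -0.41. In the mesenchyme list none of 13 genes was beyond 1.3-fold on both arrays, and the medians were -0.05 and -0.07, with Col1a2, its brightest, at 0.15 and 0.10. The neural tissue list checked the label of the samples. Of its 13 genes, all were well above background and 5 were higher on both arrays (2.52% of all genes), among them Six3, Ncam1 and Sox2. The medians were 0.33 and 0.52. Vim, the brightest, had 0.10 and 0.18. Some genes counted in the endothelium and neural lists, among them Emcn, Plvap and Sox2, stand in the study's own list of changed genes. That list was chosen on these arrays, and the lists here were chosen with earlier results of them known. These counts are therefore not independent evidence.

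**Figure D4:**
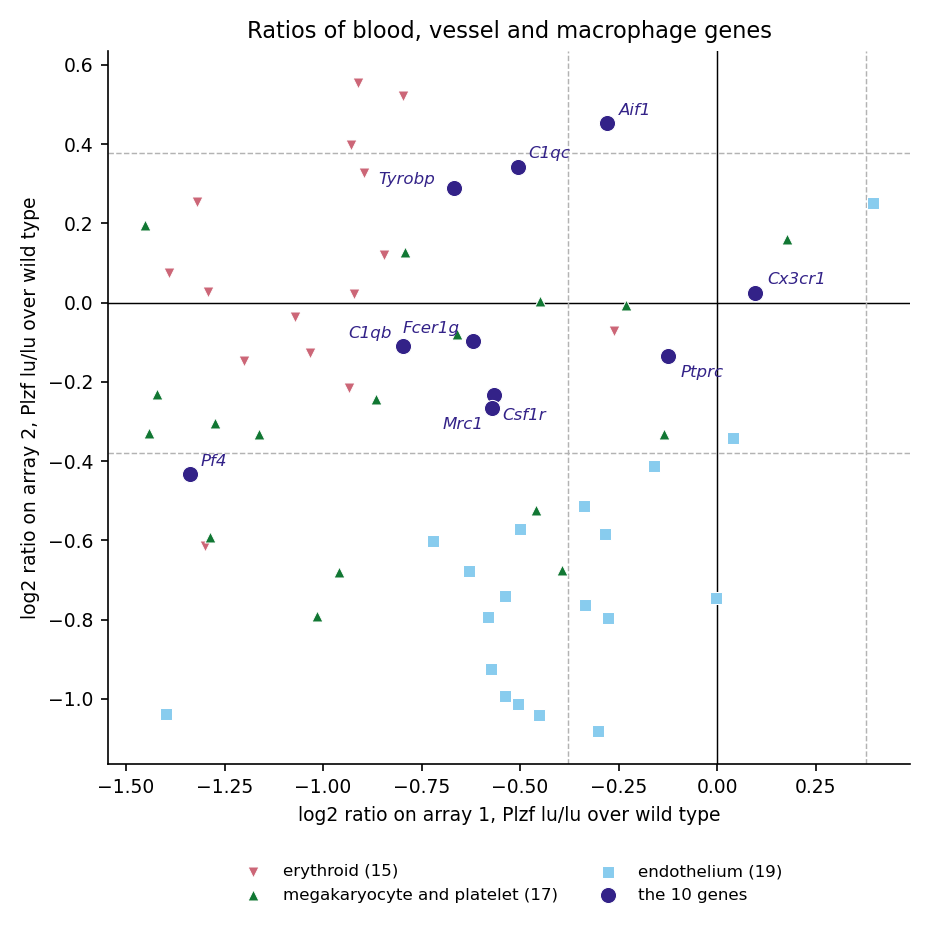
Log2 ratio (Plzf lu/lu over wild type) on array 1 (horizontal) against array 2 (vertical) for the 10 genes (named circles) and for the erythroid, megakaryocyte and platelet, and endothelium lists, with the number of genes in parentheses. Each point is the brightest probe of a gene well above background in all 4 channels, and dashed lines mark 1.3-fold. Erythroid genes lay to the left and around 0 on array 2 (medians -0.94 and 0.03), and endothelial genes lay lower (medians -0.45 and -0.75).

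A wider set of 76 macrophage genes in 6 lists was examined beside the 10. Of these, 74 were on the array and 59 were well above background in all 4 channels. On both arrays 6 of the 59 were lower by more than 1.3-fold and 1 was higher, against 2.07% and 2.52% of all genes well above background. The medians of the 59 were -0.27 on array 1 and -0.07 on array 2. Taken by array, 19 of the 59 were lower on array 1 (9.67% of all genes) and 8 on array 2 (5.12%). At an unadjusted limma p under 0.05, 17 were lower and 4 higher, against 8.11% and 8.88% of all genes well above background. No gene of that fit had an adjusted p under 0.05, within these lists or outside them.

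The genes lower on both arrays did not belong to 1 function. Besides Cx3cl1, they included Plek, pleckstrin of platelets and leukocytes, which read 303 in wild type and 141 in Plzf lu/lu on array 1 and 129 and 96.8 on array 2, log2 ratios of -1.10 and -0.41. Inpp5d, the inositol phosphatase SHIP1, had -0.80 and -0.69. Vav1, an exchange factor of blood cells, had -0.70 and -0.58. Dab2, an endocytic adaptor that some macrophages, endothelium and endoderm share, had -0.51 and -0.51. The gene higher on both arrays was Slc2a5, a fructose transporter from the list of mature microglia. It read 43.2 in wild type and 60.6 in Plzf lu/lu on array 1, and 39.1 and 54.4 on array 2.

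Among 16 genes of immunoreceptors and ITAM signalling, 4 were lower by more than 1.3-fold on array 1 and 2 on array 2, with medians of -0.25 and -0.08. Over all genes well above background, 9.67% were lower on array 1. On array 2, 5.12% of them were lower and 6.50% higher. Among 17 genes of macrophage identity and lysosome, 6 were lower on array 1, 2 were lower and 3 higher on array 2, and the medians were -0.29 and -0.06. Lgmn, a lysosomal protease and the brightest of that list, had log2 ratios of 0.01 and -0.10. In the list of yolk sac and border macrophages 7 of 11 genes were well above background, with medians of -0.42 and -0.02. The brightest probe of Siglech read 24406 and 23787 on array 1 and 22057 and 22113 on array 2, log2 ratios of -0.04 and 0.00. Its 1 other probe well above background in every channel had 0.70 and 0.46. A further Siglech probe, of the same transcript as the brightest, was well above background in 1 channel only. The brightest probe of Mgl2 read 14634 and 18180 on array 1 and 17456 and 17194 on array 2, log2 ratios of 0.31 and -0.02. The other Mgl2 probe, of the same transcript, was well above background in 2 channels. Whether these bright probes measured RNA of Siglech and Mgl2 was not tested.

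Of 10 markers of mature microglia 7 were well above background in all 4 channels, and P2ry12, P2ry13 and Gpr34 were not. The 7 had medians of -0.05 and 0.15, and Slc2a5 was the only one beyond 1.3-fold on both arrays, where it was higher. The brightest, Sparc, which mesenchyme and vessels also make, had log2 ratios of 0.03 and -0.12. Among the myeloid transcription factors Spi1, which encodes PU.1, was not well above background in every channel, so no ratio is given for it. Myb, the brightest of the 9 that were and a factor of definitive progenitors, had 0.28 and 0.51. The neutrophil and mast cell list had 7 of 12 genes well above background, of which S100a9 and Mpo were lower on both arrays. Mpo, myeloperoxidase, read 273 and 173 on array 1 and 136 and 63.4 on array 2, and Elane, the brightest, had -0.15 and -0.02. In the lymphoid list 6 of 12 genes were well above background, with Ms4a1 lower and Klrb1c higher on both arrays and Cd4, the brightest, at -0.33 and -0.08. Over all genes well above background, 2.07% were lower by more than 1.3-fold on both arrays and 2.52% higher.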

How the data were processed

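Total RNA was labeled with Cy3 (wild type) or Cy5 (Plzf lu/lu) and hybridized to Agilent SurePrint G3 arrays. The authors scanned them and deposited the output of Feature Extraction 10.7.3.1, in which spot intensity is background-subtracted and the dyes are normalized within each array by LOWESS. These deposited files also give log10 ratios (Cy5 over Cy3). The log2 ratios of a further deposited file lay within 0.005 of them. No normalization between the arrays was applied by the authors. The number of arrays limits the precision.

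Control spots and outlier spots (137 and 126 of 59305 gene spots) were left out, and no gene spot was saturated. Log2 values of spots with the same probe were averaged, and the probe with the highest mean signal over the 4 channels represented a gene. limma 3.58.1 (lmFit and eBayes; R 4.3.3) tested the mean log2 ratio against 0, and p-values were adjusted (Benjamini-Hochberg) over every gene in the fit. Since 2 arrays leave 1 residual degree of freedom, its variance comes mostly from pooling over genes. Between-array differences and the alternative without pairing used quantile normalization. The fit was tested on simulated data. Other tools were numpy 2.4.6, pandas 2.3.3 and matplotlib 3.10.9 under Python 3.11.15, and the R package data.table (version 1.17.8).

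All 10 genes were named with every probe. From each further list the text names up to 4 genes that passed 1.3-fold on both arrays with the same sign, those with the largest smaller change, and the gene with the highest mean signal, and exceptions are marked. A few genes that meet these criteria are not reported here. The members and lists were chosen with earlier results of these data known. Positions of probes are in mm9 and those of promoters in GRCm38.p6, and 13 of 13 RefSeq probe names matched the RefSeq annotation. The alternatives were normexp (offset 50) with loess or median centring, the deposited log2 values, 3 other filters, the mean over probes, no pairing by array, 1.5-fold as the threshold, the arrays averaged, each array alone, and removal of the trend on GC content (lowess, span 0.67). The brightest RefSeq probe was added after seeing the data.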

Additional observations from a re-analysis of the deposited data

How the results depend on the processing

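Counts by threshold were made over the 5 of the 10 genes that passed the signal filter, unless said otherwise. The count lower by more than 1.3-fold on both arrays was 1. It was 0 at a threshold of 1.5-fold, 0 with normexp and median centring, and 2 on the mean of the arrays (Csf1r and Pf4). When 1 array was left out, it was between 1 and 4. Without array 2 the 4 were Csf1r, Fcer1g, Pf4 and Tyrobp. Of all 10600 genes that passed, 78 were lower by the main processing, 12 at 1.5-fold and 4 with normexp and median centring. On the mean of the arrays 245 of them were lower, on array 1 alone 592 and on array 2 alone 208. The count higher among the 5 was 0 under every alternative run. Of the 10600 genes, 274 were higher by the main processing, 41 at 1.5-fold and 498 on the mean of the arrays. With normexp and median centring 6698 of them were higher. Over all 10 genes without the filter, 4 were lower on the mean of the arrays (C1qb, Csf1r, Mrc1 and Pf4). The share of all genes at that setting was not computed, so this count has no baseline. On array 1 alone 7 of the 10 were lower, against 9.67% of the 23284 genes well above background. On array 2 alone 1 was lower (Pf4) and 1 higher (Aif1), against 5.12% and 6.50% of those genes. The median log2 ratio of the 10 genes, -0.27, lay between -0.57 and -0.10 when 1 array was left out and between -0.38 and -0.22 under the other alternatives except median centring. Normexp with median centring moved the median of all genes that passed to 0.55, and the median of the 10 genes to 0.17, which is -0.38 relative to all genes. Under it Csf1r stood at 0.11, Fcer1g at 0.063, Tyrobp at 0.24 and Ptprc at 0.39 (limma adjusted p = 0.0077), and Pf4 at -0.31 (limma adjusted p = 0.030); each was below the median of all genes. Under the other alternatives with a test, none of the 10 had an adjusted p under 0.05. The mean over probes put Ptprc at 0.11, with dim probes included. Without the replicate block, quantile-normalized channels taken as unpaired gave a median of -0.27. The count by threshold stayed at 1, and no adjusted limma p was under 0.05 either way. The number of the 5 genes with an unadjusted limma p under 0.05 went from 3 to 1. As the normalization also differed, the effect of the block alone was not tested. C1qb, C1qc, Aif1, Mrc1 and Cx3cr1 were under 200 in at least 1 channel, where background weighs more in a ratio. Neither the dye, the blood content nor any difference of strain background could be separated from genotype with these 2 arrays.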
